A study of Coffea canephora with 12 samples.

Results

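The genes described here are the 100 most stable ones in a transcriptome series on the induction of somatic embryogenesis (SE) in *Coffea canephora* (var. Robusta), considered as candidates for normalizing expression. They were chosen on their measured values. Counts were divided by the library total and scaled to CPM, the usual unit for a share of the counted reads. Genes with a mean of at least 20 CPM over the 12 libraries were kept, and the 100 with the smallest standard deviation (SD) of log2(CPM + 0.5) were taken. Of 25574 genes counted, 10487 passed the limit of 20 CPM. The small spread of the 100 genes over these libraries is therefore what defined them and is not a finding.

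RNA-seq libraries were made from leaf tissue of plantlets grown in vitro at 6 time points, with 2 libraries at each. The control was sampled 14 days before induction (dbi), on Murashige-Skoog (MS) medium with no growth regulators. At 9 and 0 dbi the plantlets stood on MS medium with the auxin naphthaleneacetic acid (NAA) and the cytokinin kinetin (KIN), and these 3 time points form the pretreatment stage. For the induction stage, leaf explants were cut from the plantlets and sampled after 1, 2 and 21 days (dai, days after induction) in Yasuda medium with the cytokinin benzyladenine (BA). The labels name no difference in genotype between the groups. Medium, wounding, light and age of the culture changed together between the stages, so their parts cannot be told apart. By the submitters' account, both libraries of a time point were sequenced from the same sample as technical replicates. An SD within a time point and the p-values for differences between time points therefore measure only the spread between libraries. The libraries of a time point nevertheless differed far beyond counting error, and whether they come from separate RNA extractions is not known, so the source of that spread was not tested. For the stages, counts were summed per time point, so those p-values rest on the spread between the time points of a stage. In whole tissue, fewer cells of a type and less RNA per cell cannot be told apart.

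Relative quantification by qRT-PCR divides the signal of a gene of interest by that of a reference gene measured in the same RNA, which takes out differences in the amount and quality of the template. A useful reference gene keeps the same share of the RNA in every tissue and time point compared, and its transcript should be abundant enough to be measured well. Genes for basic cell functions, such as cyclophilin, actin or ubiquitin, are common choices in plants, and their suitability is usually checked anew for each tissue and treatment. SE is a demanding case, because differentiated leaf cells return to division and form embryos. The study used cyclophilin as its qRT-PCR reference. The gene IDs of the count files carry no names or descriptions, apart from the *CcGH3* genes that the study names, so the candidates appear here by ID, with no function, and CPM was not divided by gene length. A CPM is thus a share of the reads of a library, and a level of 1 gene cannot be compared with that of another as transcripts.

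Reads in genes ranged from 10091539 to 36525500 per library (median 22765039). An absent gene could still hold 0.0821 to 0.297 CPM, depending on the library (the level of 3 counts, for counting error alone). No stable gene had a library without reads, and the lowest count of any of them was 181. Between 17204 and 22257 genes had reads in a library, with the fewest at 9 dbi and at 1 dai. Replicate 1 of 14 dbi, 0 dbi, 2 dai and 21 dai stood apart by a share of 17.6% to 20.3% of reads with low mapping quality, against 11.2% to 12.7% in the other 8 libraries. Single stable genes differed by up to 0.30 on the log2 scale between the means of these 4 and the other 8 libraries, and the part of mapping quality in their spread was not tested. With the 8 libraries alone, 34 of the 100 genes were chosen again. The labelled leaf tissue could not be checked against marker genes, since the IDs carry no names.

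The 100 genes lay along the lower edge of the cloud of all genes that passed the limit of level, and none of them was among the genes with the largest shares of reads. Their SD ranged from 0.139 to 0.223 with a median of 0.204, where the median over all 10487 genes was 0.618. Between the lowest and the highest of the 12 libraries, the stable genes differed by 1.32- to 1.86-fold, with a median of 1.60-fold. The median of all genes with reads in every library was 3.99-fold (n = 10260). All 100 stayed under 2-fold, as did 699 of all 10487 genes (6.67%). Under 1.5-fold were 22 of the 100, and no other gene among the 10487. Counting error alone would give a median SD of 0.0391 at these depths, so the spread of the stable genes was still larger than that of read sampling. Their coefficient of variation in CPM had a median of 14.3%, against 41.5% for all genes.

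**Figure D1:**
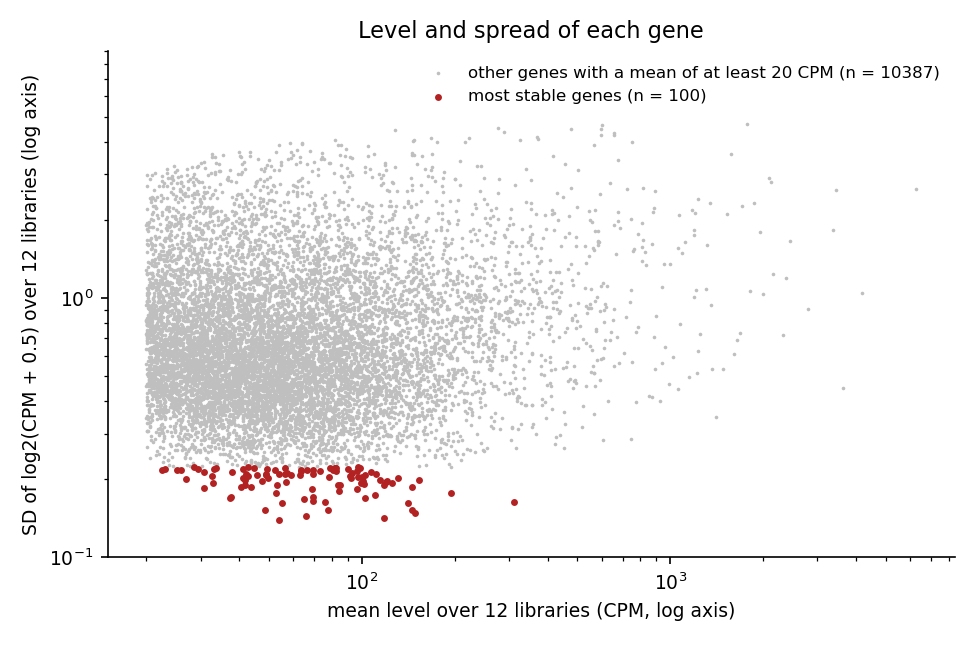
Mean level of each gene in CPM (x axis, log scale) against the SD of log2(CPM + 0.5) over the 12 libraries (y axis, log scale), for the 100 stable genes (red) and the other genes with a mean of at least 20 CPM (grey). The red points form the lower edge from 22.4 to 311 CPM, and only 1 of them lies above 200 CPM.

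Mean levels of the stable genes ran from 22.4 to 311 CPM with a median of 67.8 CPM, close to the median of 51.8 CPM over all genes past the limit. Of the genes between 20 and 50 CPM, 33 of 5041 were chosen, between 50 and 100 CPM 45 of 3176, and between 100 and 200 CPM 21 of 1521. Between 200 and 500 CPM, Cc00_g26000 was the only one of 581. None of the 168 genes at 500 CPM or more was chosen, and the least variable of them was Cc07_g14600, with an SD of 0.283 at a mean of 607 CPM. At the lower limit of level, the chosen genes with the lowest means were Cc06_g09230 (22.4 CPM), Cc11_g11840 (23.0 CPM) and Cc02_g20850 (25.1 CPM). Cc04_g06770, Cc11_g11150 and Cc11_g10370 had an SD small enough, but their means of 19.3, 16.0 and 13.9 CPM lay below 20 CPM. At the limit of spread, the last genes inside were Cc04_g07850, Cc00_g12620 and Cc10_g04060 (SD 0.223 each), and the first outside were Cc01_g06410 (0.223), Cc09_g10860 (0.224) and Cc09_g04140 (0.224). The limit of 100 marks no gap in spread.

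Cc01_g18180 had the smallest SD of all genes, 0.139. In replicates 1 and 2 its level was 43.9 and 54.1 CPM at 14 dbi, 60.9 and 52.3 at 9 dbi, 46.8 and 50.9 at 0 dbi, 53.2 and 54.5 at 1 dai, 57.1 and 60.6 at 2 dai, then 52.0 and 57.9 at 21 dai. The lowest and the highest library both belonged to the pretreatment stage, and the libraries of the stages overlapped. Mean levels were 51.5 ± 5.94 CPM in pretreatment and 55.9 ± 3.24 CPM in induction (SD, n = 6 libraries each).

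Cc04_g03530 followed with an SD of 0.142, and was the only gene chosen under every one of 33 alternative ways of making the choice. Its levels were 110 and 121 CPM at 14 dbi, 117 and 139 at 9 dbi, 106 and 118 at 0 dbi, 103 and 106 at 1 dai, 137 and 112 at 2 dai, then 125 and 126 at 21 dai. The stage means were nearly equal, 119 ± 11.7 CPM in pretreatment and 118 ± 13.2 CPM in induction (SD, n = 6 libraries each). Its lowest time point was 1 dai, where both libraries lay below those of every other time point except replicate 1 of 0 dbi, which at 106 CPM lay between them.

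Cc04_g10560 (SD 0.145) was measured at 58.8 and 74.5 CPM at 14 dbi, 60.7 and 61.8 at 9 dbi, 72.6 and 52.8 at 0 dbi, 69.2 and 66.4 at 1 dai, 68.7 and 71.7 at 2 dai, then 70.0 and 65.9 at 21 dai. Its 6 induction libraries lay within 65.9 to 71.7 CPM, and the pretreatment libraries reached below and above that span. Cc05_g13760 (SD 0.148) ranged from 128 to 172 CPM, with its lowest and its highest library both in the induction stage. In Cc00_g12400 (SD 0.153), which had the smallest fold between libraries of all genes (1.32), levels were 167 and 153 CPM at 14 dbi, 165 and 160 at 9 dbi, 160 and 132 at 0 dbi, 127 and 129 at 1 dai, 136 and 128 at 2 dai, then 152 and 142 at 21 dai. The 4 libraries of 1 and 2 dai were among the 5 lowest of this gene, and the stages overlapped only through replicate 2 of 0 dbi.

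The next 7 genes in order of spread were Cc02_g08990 and Cc05_g11530 (SD 0.153 each), Cc06_g13080 and Cc01_g00290 (0.162 each), Cc02_g01450 and Cc00_g26000 (0.163 each), and Cc01_g08890 (0.165). Gaps between neighbours in this order were far below the spread between the 2 libraries of a time point, so the order of neighbours is not resolved. Several of them kept a small SD with levels that differed between time points. Cc01_g00290 stood highest at 1 dai, where both libraries lay above all others of that gene. In Cc05_g11530 the libraries of 9 dbi were the highest and those of 0 dbi among the 3 lowest.

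**Figure D2:**
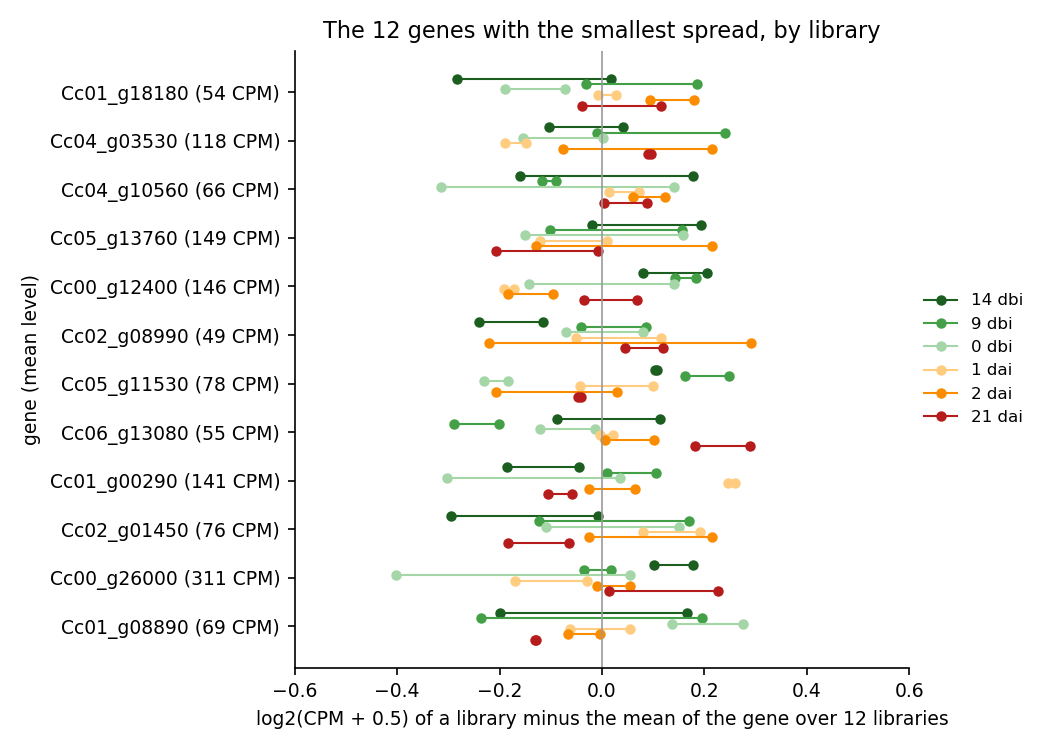
Deviation of each library from the mean of the gene, in log2(CPM + 0.5) (x axis), for the 12 genes with the smallest spread (y axis, with their mean level). Points are libraries, lines join the 2 libraries of a time point and colours mark the time points. All points lie between -0.6 and 0.6, and lines of different time points overlap in most genes.

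Of the 5 stable genes with the highest share of reads, Cc00_g26000 stood first at 311 CPM. It gave 350 and 332 CPM at 14 dbi, 313 and 302 at 9 dbi, 322 and 234 at 0 dbi, 303 and 275 at 1 dai, 321 and 307 at 2 dai, then 362 and 312 at 21 dai. The 234 CPM of replicate 2 at 0 dbi was the lowest value, and without that library the other 11 spanned 275 to 362 CPM. Cc03_g02030 followed with a mean of 194 CPM (151 to 237 CPM), then Cc05_g02050 with 153 CPM (114 to 183 CPM), Cc05_g13760 with 149 CPM and Cc00_g12400 with 146 CPM.

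Spread within time points and between them was small alike in the 100 genes. The choice on a small SD over the same libraries limits both, so these values describe the choice. The SD within time points, from the 2 libraries of each, had a median of 0.179 against 0.423 for all genes past the limit of level. The SD of the 6 time point means had a median of 0.152 against 0.535. In 66 of the 100 genes the SD of the means was above what the spread between libraries alone would give on average for means of 2 (the SD within divided by the square root of 2), and in all genes past the limit this share was 85.6%. That value is not an upper limit. Genes with no difference between time points fall on both sides of it, so the 66 were not shown to differ between time points. From the lowest to the highest time point mean, 89 of the 100 genes moved by less than 0.5 on the log2 scale, against 4.08% of all genes.

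**Figure D3:**
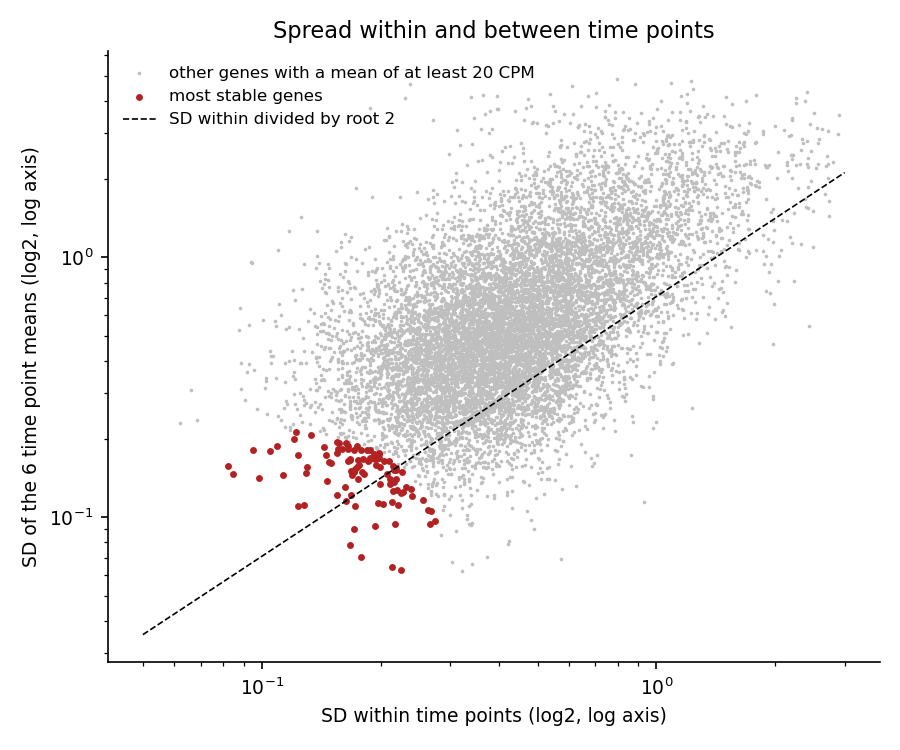
SD within time points (x axis) against the SD of the 6 time point means (y axis), both in log2 units on log axes, for the 100 stable genes (red) and the other genes with a mean of at least 20 CPM (grey). The dashed line is the spread of means that the libraries alone would give on average, and genes with no difference between time points fall on both sides of it. 66 red points lie above it.

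The 2 libraries of a time point differed most at the first time points. The median absolute log2 difference of the stable genes between the 2 libraries was 0.241 at 14 dbi, 0.212 at 9 dbi and 0.207 at 0 dbi. After induction it was 0.143 at 1 dai, 0.120 at 2 dai and 0.161 at 21 dai. Over all genes past the limit these values were 0.503, 0.474, 0.566, 0.241, 0.303 and 0.433 in the same order, so that the stable genes followed the broad pattern with smaller differences. Replicate 1 held many reads of low mapping quality at 14 dbi, 0 dbi, 2 dai and 21 dai, and these time points include both the largest difference (14 dbi) and the smallest (2 dai). The part of mapping quality in these differences was not tested. At 14 dbi the difference ran mostly one way, with replicate 1 below replicate 2 by a median of 0.22 on the log2 scale. Among all genes past the limit, replicate 1 was also below by a median of 0.22. Over the 12 libraries, the median deviation of the stable genes from their own means ran from -0.13 in replicate 2 of 0 dbi, where 28 of 100 were above their mean, to 0.11 in replicate 2 of 14 dbi, where 75 were.

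Every time point held the highest or the lowest mean of some stable genes. The highest time point mean was at 1 dai in 24 of the 100, at 2 dai in 23 and at 0 dbi in 8, where the shares of all genes past the limit were 22.8%, 16.8% and 8.34%. The lowest mean was at 0 dbi in 25 of the 100 (16.2% of all genes), at 14 dbi in 20 (15.5%) and at 21 dai in 20 (26.4%). At 9 dbi and at 2 dai, 11 of the 100 each had their lowest mean, against 21.0% and 4.44% of all genes.

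Between the stages, the absolute difference of the 6 induction and the 6 pretreatment libraries had a median of 0.10 on the log2 scale in the stable genes and 0.59 in all genes past the limit. The choice on a small SD limits this difference too. In 46 of the 100 the difference was under 0.1, against 9.86% of all genes. The induction mean was the higher one in 60 of the 100 and in 56.3% of all genes. Cc02_g36520 had the smallest difference, 7.55e-05, with 41.1 ± 6.32 CPM in pretreatment and 41.0 ± 5.97 CPM in induction (SD, n = 6 libraries each). Cc02_g29660 and Cc06_g04700 came next, with stage means of 118 and 117 CPM, and of 92.8 and 91.4 CPM. The SDs of these 3 genes were 0.203, 0.190 and 0.203 in the same order, below the median of 0.204 of the 100 genes. Nearly equal stage means still left differences between libraries. Cc02_g29660 ranged from 95.8 to 158 CPM, and its highest library, replicate 1 of 9 dbi, faced 112 CPM in replicate 2.

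At the other end, Cc08_g17070 had the largest difference between stages, -0.30 on the log2 scale, with 77.0 ± 9.90 CPM in pretreatment and 62.2 ± 6.06 CPM in induction (SD, n = 6 libraries each). Its level was 70.4 and 94.5 CPM at 14 dbi, 81.2 and 71.9 at 9 dbi, 76.8 and 67.1 at 0 dbi, 61.9 and 58.3 at 1 dai, 55.6 and 59.6 at 2 dai, then 72.6 and 65.2 at 21 dai. The 4 libraries of 1 and 2 dai were the lowest, and the 21 dai libraries overlapped with pretreatment. Cc03_g10040 was also lower in induction, by 0.28 on the log2 scale, with overlap. In Cc01_g13690 (difference 0.29) the stages did not overlap in CPM on library totals. This gene was measured at 32.0 and 37.1 CPM at 14 dbi, 35.0 and 36.2 at 9 dbi, 40.7 and 36.6 at 0 dbi, 43.7 and 41.0 at 1 dai, 44.6 and 42.2 at 2 dai, then 44.4 and 51.7 at 21 dai. It was the only stable gene of this kind, where 19.5% of all genes past the limit had stages that did not overlap.

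In edgeR's quasi-likelihood test, none of the 100 genes was called changed (p under 0.05 after Benjamini-Hochberg adjustment over every gene in the test) over the 6 time points, where 21.9% of 20745 genes were called. The same held at 21 dai against 14 dbi (13.7% called), at 1 dai against 0 dbi (7.82%) and, on counts summed per time point, between the stages (11% of 19990 genes). The choice used these contrasts, so the counts of 0 describe it and add nothing to it. At an unadjusted p under 0.05, edgeR gave 0, 0, 2 and 0 of the 100 genes in these comparisons, and DESeq2 gave the same counts, with no adjusted call. Whether the 2 genes of DESeq2 were the same ones as those of edgeR was not checked. The pair of edgeR was Cc04_g03460, at 117 and 116 CPM at 0 dbi and 74.6 and 92.4 CPM at 1 dai (log2 fold change -0.68, SE 0.28, adjusted p = 0.157 by edgeR), and Cc02_g02010, at 50.6 and 47.8 CPM at 0 dbi and 39.5 and 34.3 CPM at 1 dai (-0.62, SE 0.27, adjusted p = 0.178 by edgeR). In both genes the 0 dbi libraries lay above the 1 dai libraries. These log2 fold changes are after TMM scaling, while the CPM use library totals. With library totals, or with size factors from the stable genes, edgeR gave 0 of the 100 at an unadjusted p under 0.05 in this contrast. A p that misses the threshold does not show that a gene is constant, and with 2 libraries per time point the SE of these log2 fold changes was large.

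Since the choice used every library, stability was also read in libraries that a choice had not used. When the 100 genes with the smallest SD were taken from the 6 libraries of replicate 1, their median SD there was 0.140, and in the 6 libraries of replicate 2 it was 0.314, against 0.585 for all genes past the limit. Taken from replicate 2, it was 0.134 there and 0.365 in replicate 1, against 0.632. Of the 100 genes, 96 and 90 were below the median of all genes in the held-out libraries, and 34 and 30 were in the lowest 10%. The choices on replicate 1 and on replicate 2 shared 4 genes, of which Cc04_g03530, Cc00_g12400 and Cc02_g08990 are among the 100 chosen on all 12 libraries. By the submitters' account the replicates share their samples, so this reading does not cover another set of plants.

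**Figure D4:**
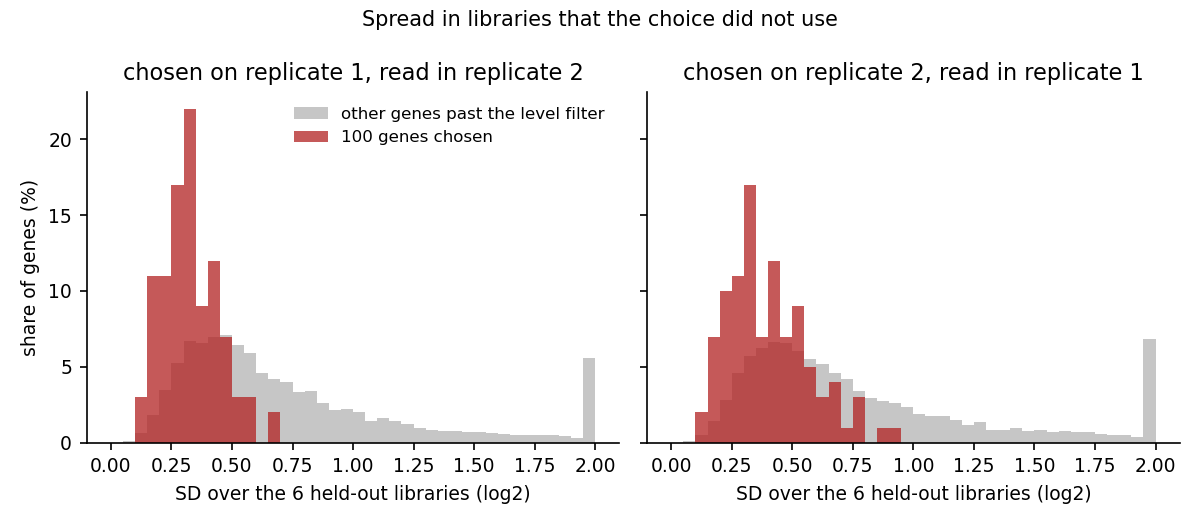
SD over the 6 libraries that the choice did not use (x axis, log2 units; the last bin holds all values of 2 and above) as a share of genes in percent (y axis), for 100 genes chosen on the other replicate (red) and the other genes past the level filter (grey). The red distributions, with medians of 0.314 (left) and 0.365 (right), lie below the grey ones and overlap with them.

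Choices were also made with a whole time point left out. This reading is a deviation of means and not an SD, so its values cannot be set against the held-out SDs above. Genes chosen on the other 5 time points were off by a median absolute deviation of 0.189 at 14 dbi, 0.234 at 9 dbi, 0.227 at 0 dbi, 0.240 at 1 dai and 0.215 at 2 dai, on the log2 scale. At 21 dai it was 0.330, the largest of the 6 and still below the 0.491 of all genes. At the other time points the values for all genes were 0.389 to 0.516. Within 0.5 of their mean elsewhere were 75 of the 100 at 21 dai and 83 to 91 at the other time points, where the share over all genes was 48.8% to 60.2%, with 50.7% at 21 dai.

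Single genes show what a choice on part of the series can miss. Cc07_g14700 was chosen when 21 dai was left out. Its level lay between 65.6 and 99.9 CPM in the 10 libraries up to 2 dai and at 12.9 and 15.9 CPM at 21 dai, a difference of -2.57 on the log2 scale. Cc07_g07520, chosen without 1 dai, had 44.0 and 38.0 CPM at 1 dai and 64.2 to 108 CPM at all other time points, so that both 1 dai libraries lay below the rest. Cc05_g01290, chosen without 9 dbi, differed from these 2 genes. Its replicate 1 at 9 dbi had 40.4 CPM, inside the 29.5 to 45.5 CPM of the other time points, and its replicate 2 had 4.65 CPM, so that a single library carried the difference. None of the 3 is among the 100 stable genes.

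Averaging several genes is the usual way to make a steadier reference. The SD of the geometric mean over the 12 libraries was 0.139 for the first gene alone, 0.113 for the first 2, 0.0922 for the first 3, 0.0725 for the first 5 and 0.0614 for the first 10, and 0.0632 with all 100. With 20 or 50 genes it was no smaller than with 10. These values come from the libraries that chose the genes. In held-out libraries, the first gene chosen on replicate 1 gave 0.289, the first 10 gave 0.194 and all 100 gave 0.145. For the choice on replicate 2 the values were 0.346, 0.265 and 0.200. There the mean over 3 to 20 genes did not improve steadily, with 0.252 for 3 genes and 0.287 for 20.

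The stable genes were also compared in pairs, since a ratio of genes does not depend on how a library is scaled. The stability measure M of the geNorm method is the mean SD of the log2 ratio of a gene to each of the others. It ran from 0.215 in Cc01_g18180 to 0.310, with a median of 0.263. This M was taken among the stable genes only, on the values that had chosen them for a small SD. A small M was therefore largely set by the choice and is not a separate test of stability. Of the 4950 pairs, Cc01_g18180 and Cc06_g01230 had the smallest SD of the log2 ratio, 0.0955, against a median of 0.264. Cc06_g01230 (SD 0.170, 15th in order of spread) was at 82.1 and 102 CPM at 14 dbi, 102 and 93.8 at 9 dbi, 91.1 and 97.3 at 0 dbi, 101 and 117 at 1 dai, 108 and 128 at 2 dai, then 97.4 and 111 at 21 dai. The ratio of Cc01_g18180 to Cc06_g01230 stayed between 0.467 and 0.602 in the 12 libraries. The pair moved together from library to library, so that part of the spread of each was shared by the other. Rankings by M are known to favour genes that move together.

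Scaling decided much of the list. Besides the total, libraries were scaled by TMM (trimmed mean of M values, from edgeR) and by RLE (the median-of-ratios size factors of DESeq2), which set the bulk of the genes as constant. TMM factors ran from -0.21 (replicate 1 of 0 dbi) to 0.16 (replicate 2 of 2 dai) on the log2 scale, and the mean of the 100 stable genes from -0.12 to 0.10. The largest gap between these factors was 0.199, in replicate 1 of 0 dbi. After TMM scaling 54 of the 100 genes were chosen again and after RLE scaling 47, with 46 chosen by both. The 10 genes with the smallest SD after TMM scaling were all among the 100. Cc01_g18180 kept the first place and its SD fell to 0.0665, with levels between 48.5 and 57.4 CPM, a 1.18-fold range, where counting error alone would give 0.0442. Cc06_g01230 came second with 0.106. Cc04_g03530 was chosen again, but its SD rose from 0.142 to 0.175, at rank 27 (0.186 with RLE). Cc04_g07850, at the edge of the list, dropped to rank 750, and Cc00_g12400, with the smallest fold before, to rank 233.

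**Figure D5:**
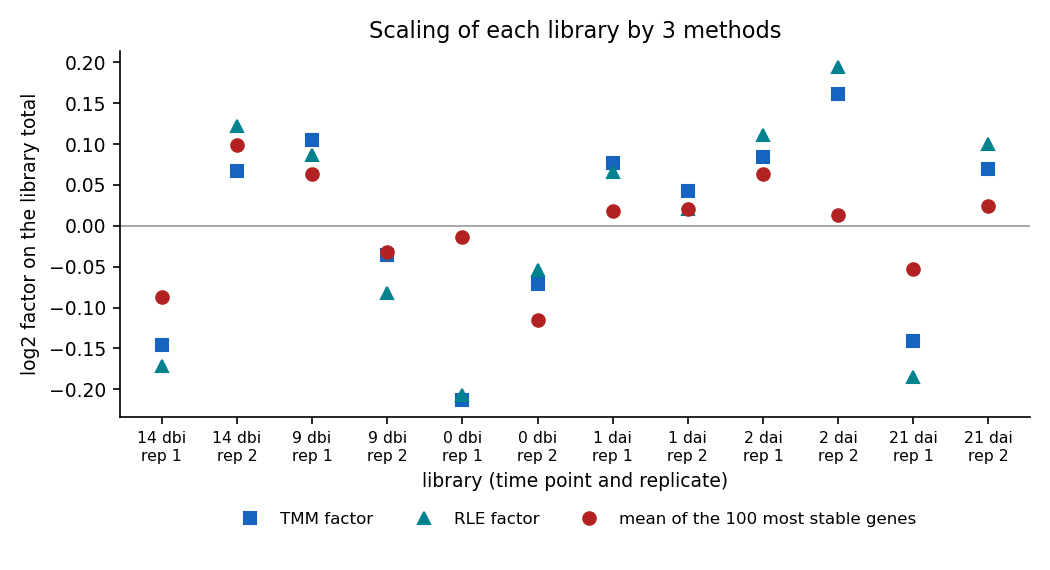
Log2 factor on the library total (y axis) for each of the 12 libraries (x axis, time point and replicate), from TMM (squares), RLE (triangles) and the mean of the 100 stable genes (circles). The 3 factors differ most in replicate 1 of 0 dbi, where TMM and RLE lie at -0.21 and the stable genes near 0.

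For a gene of interest, the choice between these scalings shifted every log2 fold change of a contrast alike. With the stable genes as reference in place of TMM, the shift was 0.12 at 1 dai against 0 dbi. Against 14 dbi it was 0.06 at 9 dbi, -0.03 at 0 dbi, 0.09 at 1 dai, 0.13 at 2 dai and 0.02 at 21 dai. At 1 dai against 0 dbi the median log2 fold change of all genes tested was -0.13 with TMM, -0.02 with the stable genes and 0.05 with library totals. The split of the calls moved with it. With TMM 609 genes were higher and 1014 lower at 1 dai, with the stable genes 630 and 836, and with library totals 715 and 740. A log2 fold change smaller than these shifts can take either sign at this contrast, depending on the scaling.

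Across the alternatives of scaling, of leaving out each library in turn and of leaving out each time point in turn, 18 of the 100 genes were chosen every time. They were Cc01_g18180, Cc04_g03530, Cc04_g10560, Cc05_g11530, Cc06_g13080, Cc01_g00290, Cc02_g01450, Cc01_g08890, Cc06_g01230, Cc06_g05050, Cc02_g27110, Cc06_g20810, Cc07_g04960, Cc03_g02030, Cc11_g07340, Cc03_g05430, Cc01_g13690 and Cc06_g03280. Cc01_g13690, whose stages did not overlap with library totals, is among them. After TMM scaling its log2 fold change of induction against pretreatment was 0.24 (SE 0.21, adjusted p = 0.516 by edgeR). Without a single library 66 to 83 of the 100 were chosen again, with the fewest without replicate 1 of 21 dai. Without a time point 48 to 67 were, with the fewest without 21 dai.

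The stable genes came from all groups of gene IDs. Every one of the 12 ID prefixes, Cc00 to Cc11, held between 4 and 15 of them, and the share of genes past the limit ran from 0.643% (Cc03) to 1.51% (Cc09). In the order of the annotation, 2 pairs were direct neighbours, Cc02_g17200 with Cc02_g17210 and Cc08_g03530 with Cc08_g03540. The log2 ratio had an SD of 0.297 in the first pair, above the median of all pairs, and of 0.192 in the second.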

How the data were processed

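The authors deposited 1 file of raw counts per library, with whole-number counts for 25574 genes and 5 lines of unassigned reads, which were left out (reads in genes were 29.2% to 59.9% of each library). Per the submitters' processing notes, FastQC 0.11.5, cutadapt 1.14 and HTSeq 0.10.0 were used. Not given in the sources used here were the aligner, the genome build and whether strand was used. Reads of near-identical copies have low mapping quality and are left out by HTSeq's usual settings, so that such genes can be undercounted.

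Libraries were grouped by the time point in their labels. CPM, SD, held-out choices and geNorm's M were computed in Python 3.11.15 (numpy 2.4.6, pandas 2.3.3). Tests used edgeR 4.0.16 in R 4.3.3 with TMM, filterByExpr and time point as the only factor, and DESeq2 1.42.0 as an alternative. For the stages, the counts of the 2 libraries of a time point were summed. An SE is the size of the log2 fold change divided by the square root of F. Scripts were tested on simulated data. The 100 genes, the lists and the tests were chosen with earlier results of these data known.

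Named genes were the 12 with the smallest SD, the 5 with the highest CPM, the 3 with the largest and the 3 with the smallest stage difference, 3 on each side of both limits, the tightest pair, adjoining genes, those chosen under every alternative, and the *CcGH3* gene with the smallest SD. Genes that moved most at a left-out time point, the 18 chosen under all scaling and leave-out alternatives, those past an unadjusted p of 0.05, the least variable gene at 500 CPM or more, and the other *CcGH3* genes were named after their values were seen. All 25574 IDs matched the AUK_PRJEB4211_v1 annotation, which was used only for the order of genes. Planned lists of common reference genes, leaf markers and promoter motifs were not used here, nor was cyclophilin located, because names, descriptions and sequences were not at hand.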

Additional observations from a re-analysis of the deposited data

How the results depend on the processing

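None of the 100 genes was called changed under any alternative of the 4 comparisons (by edgeR or DESeq2). The choice used these contrasts, so the counts of 0 describe it and do not show that it is robust. The number of genes called in all moved between the alternatives and was small under some, as given below. Of the 100, 54 were chosen again with TMM, 47 with RLE, 60, 52, 60, 65 and 48 without 14 dbi, 9 dbi, 0 dbi, 1 dai and 21 dai, 29 on replicate 1 and 21 on replicate 2 alone, 34 on the 8 libraries with less than 15% of low mapping quality, 28 by the median absolute deviation and 55 by M against all genes past the limit. Without single libraries it was 66 to 83. Their median SD was 0.211 with RLE, 0.203 with a pseudocount of 1 CPM, 0.198 to 0.204 without single libraries, 0.201, 0.202, 0.196, 0.206 and 0.203 without 14 dbi, 9 dbi, 0 dbi, 1 dai and 2 dai, 0.191 and 0.193 on replicates 1 and 2 alone, and 0.196 on the 8 libraries. The median absolute deviation, the coefficient of variation, the dispersion and M are other measures than the SD, so no such value is given for them. With a pseudocount of 1 CPM the median M was 0.260. The cause of these moves was not tested, beyond the fewer libraries in some. With DESeq2, 8329 genes were called over the 6 time points, 4966 at 21 dai against 14 dbi, 3593 at 1 dai against 0 dbi and 4748 between the stages, against 4546, 2851, 1623 and 2195 with edgeR. Without single libraries edgeR called 2334 to 5695, 835 to 3731 and 20 to 2276 in the first 3, the lowest without replicate 1 of 21 dai, again replicate 1 of 21 dai, and replicate 2 of 1 dai. Where 1 library was left, it was assumed to vary like the others. Between the stages edgeR called 225 and 910 on replicates 1 and 2 alone and 379, 735, 396, 725 and 365 without 14 dbi, 9 dbi, 0 dbi, 1 dai and 2 dai. Replicate numbers did not pair the samples over the whole series (5 of 15 correlations of deviations were over 0.1, from -0.09 to 0.37). All 5 lay among 14 dbi, 0 dbi, 2 dai and 21 dai, whose replicate 1 had a high share of low mapping quality, and there 14 dbi with 0 dbi was the exception (-0.01). With the replicate block, 75 of the 100 genes were chosen again, with a median SD of 0.202. For single named genes, 391 SDs moved by less than the SD within time points of the gene. The 1 exception was Cc00_g12400, with an SD of 0.252 after RLE scaling. That limit is wide, with a median of 0.179 in the stable genes against 0.204 for the SD itself. Cc01_g18180 is among the 391, with an SD of 0.139 before and 0.0665 after TMM scaling, so the count does not show that the SDs are steady. With library totals, the SD of each stable gene was at least 3.15 times that of counting error. After TMM scaling counting error takes a larger part in Cc01_g18180 (0.0442 against an SD of 0.0665).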

Other observations

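The *CcGH3* genes encode enzymes that join auxin or other acids to amino acids, and the study followed them. None of them is among the stable genes. Only 3 of the 18 reached a mean of 20 CPM. *CcGH3.17i* (Cc10_g16320) was the steadiest of these, with an SD of 0.421 and rank 2319 of the 10487 genes, at 46.6 ± 5.60 CPM in pretreatment and 31.0 ± 7.07 CPM in induction (SD, n = 6 libraries each). Its SD lay below the first quartile of 0.439 over the 10487 genes. *CcGH3.17e* (Cc00_g04540) and *CcGH3.5* (Cc05_g06700) ranked 8859 and 9900. An SD on the log2(CPM + 0.5) scale can also be small because a gene is hardly read at all. *CcGH3.6a* (Cc05_g05640) had an SD of 0.401, below that of *CcGH3.17i*, at a mean of 0.0761 CPM with 9 libraries at 0 counts.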
